A study of Bos taurus with 15 samples.

Results

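Embryos cultured with frozen oviductal extracellular vesicles (FoEV treatment) were compared with embryos cultured with fresh ones (FeEV treatment), gene by gene. The members of this comparison were taken by the treatment in their labels, 5 FoEV and 5 FeEV libraries, which make 10 of the 15 libraries of the study; the other 5 come from control embryos without vesicles (Co). All embryos were bovine (Bos taurus), produced in vitro and cultured to the blastocyst stage, which the labels place at day 7 and the methods text 1 day later. Total RNA was isolated from pools of 8 to 14 embryos, and each library was made from 1 ng of RNA of 1 pool. The study cultured 7 FeEV pools with 74 embryos and 8 FoEV pools with 81 embryos, and the pools with the best RNA quality and concentration were sequenced. According to the study's description, both vesicle preparations came from the same oviducts, and the FoEV preparation was frozen and thawed before use. The labels do not tie single pools to separate oocyte batches or culture runs, so p-values measure the spread between these pools.

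Extracellular vesicles are membrane-enclosed particles that cells release and that carry proteins, lipids and RNA. Vesicles of the oviduct fluid meet the embryo in its first days, and adding them to culture medium replaces a part of the maternal environment that embryos produced in vitro lack. Frozen storage is a common way to keep vesicles, and freezing and thawing expose their membranes to ice and to changes in salt concentration. The blastocyst that is sampled here consists of the outer trophectoderm, which later forms the placenta, and of an inner cell mass that gives rise to the epiblast and the hypoblast.

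FoEV libraries held more counts than FeEV libraries. Totals ran from 3392613 to 4058887 counts in FoEV and from 2136713 to 3808602 in FeEV, so that the means were 760585 counts apart (exact permutation p = 0.0317, two-sided), and 5 of 5 FoEV libraries lay above the FeEV mean. With FeEV replicate 1, 2, 3 or 4 left out the exact permutation p was 0.0635, and with FoEV replicate 1 or 5 left out it was 0.0556. At least 1 count was found for 18533.6 ± 838 genes in FoEV and for 17612.2 ± 404 in FeEV (SD, n = 5; exact permutation p = 0.0714), and after thinning all libraries to the smallest total the difference was 334 genes (exact permutation p = 0.278). Blastocyst markers were at hand in every library. As counts-per-million values (CPM), that is, relative to the library total, the trophectoderm keratin KRT8 ran from 3478 to 6381, the trophectoderm factor GATA3 from 212 to 256, the pluripotency factor POU5F1 from 151 to 220.0 and the hypoblast factor GATA6 from 327 to 462 over the 10 libraries. OVGP1, the oviductal glycoprotein that marks the oviduct epithelium, had 14 counts over all FoEV and 7 over all FeEV libraries, the leukocyte marker PTPRC had 2 and 0, and the haemoglobin gene HBB had 0 in both. In such pools of whole embryos, fewer cells of a type and less RNA per cell cannot be told apart.

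No gene passed an adjusted p of 0.05 (0% of 10832 genes, edgeR quasi-likelihood test with Benjamini-Hochberg adjustment), and the smallest adjusted p was 0.447. At an unadjusted p under 0.001, the level that the study used for its lists, 18 genes were found (0.166% of all tested), of which 15 were higher in FoEV (0.138%) and 3 were lower (0.0277%). An unadjusted p under 0.05 was reached by 923 genes (8.52%), with 523 higher (4.83%) and 400 lower (3.69%). Every FoEV library lay above every FeEV library for 82 genes (0.757%) and below for 81 (0.748%), or 1.5% of all genes in either direction. Across all genes the differences were small, with a median of 0.01 and a median size of 0.14 on the log2 scale, and 51.8% of genes had the higher mean in FoEV. The likelihood ratio test with robust dispersion called 31 genes and the Wald test of DESeq2 3 genes at an adjusted p under 0.05. In simulated counts for this comparison, in which 200 of 10832 genes differed by 1 on the log2 scale, 84% of them were recovered by the quasi-likelihood test at 2.33% false calls, and the likelihood ratio test recovered 91.5% at 22.8% false calls. The simulated libraries were independent, with a spread fitted to these data, and no smaller change was planted. The recovered shares therefore do not apply to smaller differences, so that 0 calls do not exclude them.

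The numbers at p under 0.001 depended on single pools. Without FeEV replicate 4 only 2 genes were left on the higher side, without FoEV replicate 4 there were 7, without FeEV replicate 2, FeEV replicate 3 or FoEV replicate 1 there were 9 each, and without FoEV replicate 2 there were 27. On the lower side, 1 gene was left without FeEV replicate 1, FoEV replicate 1 or FoEV replicate 4, and 6, 7 and 13 were found without FeEV replicate 3, FoEV replicate 3 and FoEV replicate 2. The main genes are therefore given with the level in each library. Levels are CPM scaled by TMM, differences are log2 fold changes of FoEV minus FeEV with their standard error (SE) after the sign ±, and a p without the word adjusted is the unadjusted p of the quasi-likelihood test. For each gene named here the adjusted p of this comparison was 0.447 or higher, and the term higher or lower compares means or ranges and is no call.

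**Figure D1:**
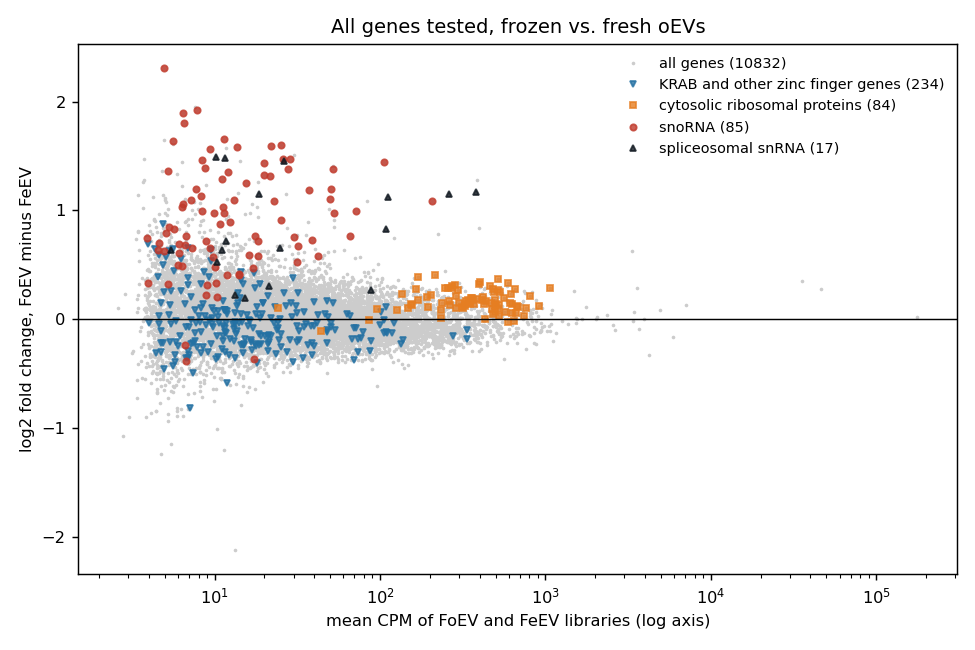
Log2 fold change of FoEV minus FeEV (vertical axis) against mean CPM of the 10 libraries (horizontal log axis) for the 10832 genes tested, with 4 gene lists marked. Of the 85 snoRNA genes 82 lie above 0, as do all 17 spliceosomal snRNA genes and 80 of 84 cytosolic ribosomal protein genes, the last with a median of only 0.15.

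Small structured RNA genes made up the lists with the largest median differences. Small nucleolar RNAs (snoRNAs) guide the modification and cleavage of ribosomal RNA in the nucleolus. Of 85 snoRNA genes in the filtered table, 82 had the higher mean in FoEV and 3 the lower. Their median was 0.90 on the log2 scale against 0.01 over all genes. An unadjusted p under 0.05 was reached by 31 on the higher side and by 0 on the lower side, or 36.5% of the list against 8.52% of all genes. A p under 0.001 was reached by 2. These 85 are the genes that passed a minimum of counts out of 634 annotated, and a gene could pass through the treatment in which it was high. Among the 203 snoRNA genes with a mean of at least 1 CPM over the 15 libraries, chosen without regard to treatment, 171 were higher and 32 lower in FoEV. The count of 31 moved with single pools, to 15 without FoEV replicate 4, 19 without FoEV replicate 5, 17 without FeEV replicate 1, 19 without FeEV replicate 4, 51 without FoEV replicate 1 and 49 without FoEV replicate 2.

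As a share of all counts, snoRNA genes took 0.167, 0.170, 0.216, 0.329 and 0.394% in FoEV replicates 1 to 5, and 0.0996, 0.174, 0.125, 0.0963 and 0.187% in FeEV replicates 1 to 5. FoEV replicates 4 and 5 were the highest, whereas FoEV replicates 1 and 2 lay within the range of FeEV. The mean share was 0.255% ± 0.102 in FoEV, 0.136% ± 0.0422 in FeEV and 0.134% ± 0.0439 in Co (SD, n = 5). The widest 95% Wilson interval of these shares, that of FoEV replicate 5, ran from 0.388% to 0.401% and covers counting error only.

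The gene of smallest p in the whole comparison was LOC112442787, which codes for the U8 RNA needed for maturation of the ribosomal RNAs of the large subunit. Its level was 103, 63.6, 51.2, 64.8 and 69.0 CPM in FoEV replicates 1 to 5, and 28.6, 47.9, 39.1, 26.0 and 36.3 CPM in FeEV replicates 1 to 5. All FoEV libraries lay above all FeEV libraries, with a log2 fold change of 0.98 ± 0.19 (SE; adjusted p = 0.447). For SNORA63 (LOC112448304), an H/ACA box snoRNA that guides pseudouridylation, the level was 94.9, 66.1, 70.0, 98.5 and 87.8 CPM in FoEV replicates 1 to 5, and 40.2, 61.3, 36.3, 31.0 and 74.9 CPM in FeEV replicates 1 to 5. Here the highest FeEV library reached into the FoEV range, with a log2 fold change of 0.76 ± 0.19 (SE; adjusted p = 0.447). The ranges overlapped likewise for SNORA73 (LOC112443631), with a log2 fold change of 0.73 ± 0.20, and for SNORA51 (LOC112449395), with a log2 fold change of 0.77 ± 0.23.

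Spliceosomal small nuclear RNAs (snRNAs) form the RNA core of the particles that remove introns. All 17 snRNA genes tested had the higher mean in FoEV, against 51.8% of all genes, with a median of 0.72. A p under 0.05 was reached by 7 of them (11 without FeEV replicate 2), or 41.2% of the list against 8.52% of all genes. Among the 40 snRNA genes with at least 1 CPM on average, out of 971 annotated, 36 were higher and 4 lower. With no filter, 191 of 330 snRNA genes were higher and 113 lower. The share of all counts on snRNA genes was 0.140, 0.0968, 0.145, 0.222 and 0.181% in FoEV replicates 1 to 5, and 0.0667, 0.103, 0.0870, 0.0667 and 0.0931% in FeEV replicates 1 to 5. FoEV replicate 2 was the only FoEV library within the FeEV range. The U2 gene LOC112442854, whose RNA pairs with the branch point of the intron, was measured at 24.1, 21.9, 40.8, 52.8 and 53.7 CPM in FoEV replicates 1 to 5, and at 12.8, 20.4, 11.3, 6.83 and 17.9 CPM in FeEV replicates 1 to 5. The ranges did not overlap, with a log2 fold change of 1.45 ± 0.35 (SE; adjusted p = 0.447). The U1 gene LOC112447196, whose RNA recognises the 5' splice site, was at 17.4, 8.07, 10.2, 25.7 and 14.2 CPM in FoEV replicates 1 to 5, and at 5.96, 5.94, 4.38, 4.10 and 5.87 CPM in FeEV replicates 1 to 5. These ranges were apart as well, with a log2 fold change of 1.49 ± 0.37 (SE; adjusted p = 0.447). A pair of U4 genes was more abundant and varied more, with a log2 fold change of 1.15 ± 0.34 for LOC112442110 and a log2 fold change of 1.17 ± 0.38 for LOC112442111, and their ranges overlapped. U1, U2 and U4 genes have near-identical copies in the genome, and how reads with several matches were counted is not given in the sources used here, so values of single copies are uncertain.

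Other structured RNA genes showed the same direction. The 9 genes of this list, among them Cajal body RNAs, the RNA of telomerase and the RNA of RNase MRP, all had the higher mean in FoEV. Their median was 0.46, and 6 were at a p under 0.05 (3 without FeEV replicate 3), or 66.7% of the list against 8.52% of all genes. RMRP, the RNA of an enzyme that cleaves precursor ribosomal RNA, was at 721, 312, 402, 653 and 446 CPM in FoEV replicates 1 to 5, and at 287, 335, 261, 234 and 297 CPM in FeEV replicates 1 to 5. FeEV replicate 2 reached just into the FoEV range, with a log2 fold change of 0.84 ± 0.21 (SE; adjusted p = 0.447). TERC, the template RNA of telomerase, was at 96.1, 58.8, 52.1, 101 and 62.7 CPM in FoEV replicates 1 to 5, and at 43.5, 63.1, 43.8, 44.2 and 44.4 CPM in FeEV replicates 1 to 5. The groups overlapped through FeEV replicate 2 again, with a log2 fold change of 0.63 ± 0.17 (SE; adjusted p = 0.447). Small Cajal body-specific RNA 4 (LOC112446113), which guides modification of snRNAs, differed most among the genes at p under 0.001, with a log2 fold change of 1.65 ± 0.42 (SE; adjusted p = 0.447). Its ranges overlapped, with FeEV replicate 2 at 5.57 CPM above FoEV replicate 3 at 5.23 CPM, and FoEV replicate 4 was highest at 14.4 CPM. The difference rested on few reads, from 2 to 15 counts per FeEV library.

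Of 5 ribosomal RNA genes, 3 of them 5S copies, all had the higher mean in FoEV. The 5S copies alone reached a p under 0.05, or 60% of the list against 8.52% of all genes. The most abundant 5S copy, LOC112443528, was at 604, 330.5, 581, 738 and 484 CPM in FoEV replicates 1 to 5, and at 185, 318, 206, 134 and 281 CPM in FeEV replicates 1 to 5. Each FoEV library exceeded all FeEV libraries, with a log2 fold change of 1.28 ± 0.35 (SE; adjusted p = 0.45). RN18S1, the 18S gene, differed less and overlapped between the treatments, with a log2 fold change of 0.35 ± 0.22. All ribosomal RNA genes together took 21.3% ± 4.597 of counts in FoEV and 20.7% ± 3.84 in FeEV (SD, n = 5). The library kit cleaves ribosomal RNA fragments before the last amplification, so these levels are what that step left.

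**Figure D2:**
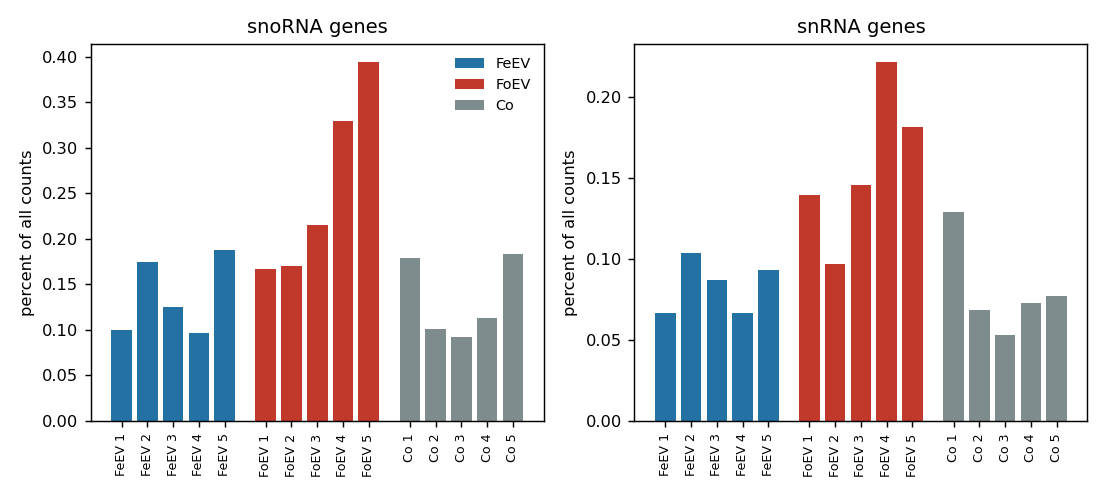
Share of all counts (percent, from 0) on snoRNA genes (left) and snRNA genes (right) in each of the 15 libraries, 1 bar per library, coloured by treatment. FoEV replicates 4 and 5 carry the highest snoRNA shares, 0.329% and 0.394%, and FoEV replicate 2 is the only FoEV library within the FeEV range for snRNA genes.

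The remaining genes of smallest p on the higher side were copies of abundant genes and a few protein-coding genes. A thymosin beta-4 pseudogene (LOC101906455), related to the main actin monomer-binding peptide, was at 17.4, 16.1, 17.1, 14.4 and 17.2 CPM in FoEV replicates 1 to 5, and at 7.75, 6.31, 9.38, 5.01 and 8.94 CPM in FeEV replicates 1 to 5. Every FoEV library was higher than every FeEV library, with a log2 fold change of 1.11 ± 0.24 (SE; adjusted p = 0.447). An RPS12 pseudogene (LOC784738) and an RPS4X-like pseudogene (LOC781612) had a log2 fold change of 1.03 ± 0.24 and a log2 fold change of 0.87 ± 0.22, respectively. A further ferritin light chain gene (LOC788801), a subunit of the iron storage shell, was at 57.4, 62.3, 61.4, 70.4 and 70.6 CPM in FoEV replicates 1 to 5, and at 49.2, 34.2, 51.3, 29.6 and 42.2 CPM in FeEV replicates 1 to 5. The FoEV libraries were again all above the FeEV libraries, with a log2 fold change of 0.63 ± 0.15 (SE; adjusted p = 0.447). Reads of such copies cannot be told apart with certainty from those of the parent genes, so these values are uncertain.

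NSMF, a protein that carries signals from the synapse to the nucleus in neurons, had the smallest p among protein-coding genes on the higher side other than the ferritin copy. Its level was 29.4, 26.2, 22.6, 27.4 and 24.5 CPM in FoEV replicates 1 to 5, and 18.2, 16.7, 18.8, 17.8 and 16.8 CPM in FeEV replicates 1 to 5. The FeEV libraries were close to each other and below all FoEV libraries, with a log2 fold change of 0.56 ± 0.14 (SE; adjusted p = 0.447). PPDPF, named for a role in pancreas development, was at 56.7, 51.2, 49.3, 69.1 and 55.6 CPM in FoEV replicates 1 to 5, and at 32.5, 39.4, 40.7, 38.7 and 48.3 CPM in FeEV replicates 1 to 5. No FeEV library reached the lowest FoEV library, with a log2 fold change of 0.49 ± 0.12 (SE; adjusted p = 0.447). RNF126, a ubiquitin ligase that clears mislocalised proteins, was at 44.2, 36.8, 33.1, 40.4 and 33.0 CPM in FoEV replicates 1 to 5, and at 27.7, 24.9, 28.5, 19.1 and 26.8 CPM in FeEV replicates 1 to 5. The ranges were separate, with a log2 fold change of 0.55 ± 0.14 (SE; adjusted p = 0.447). The rest of the genes at p under 0.001 were expressed at low levels, with a log2 fold change of 1.01 ± 0.26 for C3H1orf226, a log2 fold change of 1.02 ± 0.26 for the non-coding gene C23H6orf52 and a log2 fold change of 1.13 ± 0.30 for THAP3, which carries a DNA-binding THAP domain. Their ranges did not overlap between the treatments.

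The genes named for lower levels in FoEV encode proteins, with log2 fold changes from -0.79 to -0.30. SBF2, a myotubularin-related protein with a DENN domain, which acts on small GTPases of the RAB family, had the smallest p on this side. Its level was 74.8, 79.0, 81.3, 77.8 and 72.5 CPM in FoEV replicates 1 to 5, and 94.5, 99.2, 92.9, 102 and 111.5 CPM in FeEV replicates 1 to 5. All FoEV libraries lay below all FeEV libraries, with a log2 fold change of -0.38 ± 0.091 (SE; adjusted p = 0.447). WDR75, a nucleolar protein of the small ribosomal subunit processome, was at 60.4, 71.4, 69.2, 66.4 and 69.5 CPM in FoEV replicates 1 to 5, and at 83.2, 97.3, 72.6, 101 and 86.9 CPM in FeEV replicates 1 to 5. The lowest FeEV library was just above the highest FoEV library, with a log2 fold change of -0.38 ± 0.10 (SE; adjusted p = 0.447). ZNF606, a zinc finger repressor, overlapped between the treatments, with a log2 fold change of -0.79 ± 0.20.

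Another DENN domain protein, DENND4C, which activates RAB10 and acts in the delivery of glucose transporter vesicles, was at 168, 199, 191, 176 and 191 CPM in FoEV replicates 1 to 5, and at 229, 246, 216, 238 and 222 CPM in FeEV replicates 1 to 5. The ranges were apart, with a log2 fold change of -0.32 ± 0.085 (SE; adjusted p = 0.447). TRIM33, a ubiquitin ligase of the TGF-beta pathway, was at 197, 213, 199, 198 and 198 CPM in FoEV replicates 1 to 5, and at 237, 263, 221, 291 and 233 CPM in FeEV replicates 1 to 5. The FoEV libraries were all lower, with a log2 fold change of -0.31 ± 0.084 (SE; adjusted p = 0.448). Non-overlapping ranges were also found for RSBN1 (-0.62 ± 0.16), NAA25, a subunit of an N-terminal acetyltransferase (-0.38 ± 0.11), and UBE3A, a ubiquitin ligase (-0.30 ± 0.086). Ranges overlapped for COMMD2 (-0.48 ± 0.13), the cell surface peptidase MME (-0.62 ± 0.18), PAFAH1B2, a partner of the dynein regulator LIS1 (-0.48 ± 0.14), WDR47, a microtubule-associated protein (-0.36 ± 0.10), and ASB3, a ubiquitin ligase adaptor (-0.52 ± 0.15).

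ETNK1, the ethanolamine kinase that opens the synthesis of phosphatidylethanolamine, had the lowest levels in FoEV among the 3 treatments. Its level was 115, 129, 102, 97.5 and 114 CPM in FoEV replicates 1 to 5, and 152, 156, 131, 170.3 and 117 CPM in FeEV replicates 1 to 5. FeEV replicate 5 lay within the FoEV range, with a log2 fold change of -0.38 ± 0.11 (SE; adjusted p = 0.45). In the comparisons with control embryos, which share libraries with this one, ETNK1 was lower in FoEV than in Co (log2 fold change -0.68, edgeR adjusted p = 0.0196). In FeEV against Co its log2 fold change was -0.31 (edgeR unadjusted p = 0.00855, edgeR adjusted p = 0.999951). Of 19 genes of phosphatidylethanolamine and phosphatidylcholine synthesis 12 had the higher and 7 the lower mean in FoEV. The 3 that reached a p under 0.05 were all lower, ETNK1 itself, PCYT1A, the rate-limiting enzyme of the choline branch (-0.24 ± 0.11), and SELENOI, which makes phosphatidylethanolamine from its activated head group (-0.25 ± 0.11). Without FoEV replicate 2, 1 lower gene was left, and genes on the higher side reached that p in the fits without FeEV replicate 5 (3 genes) and without FeEV replicate 4, FoEV replicate 2, FoEV replicate 3 or FoEV replicate 4 (1 gene each).

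**Figure D3:**
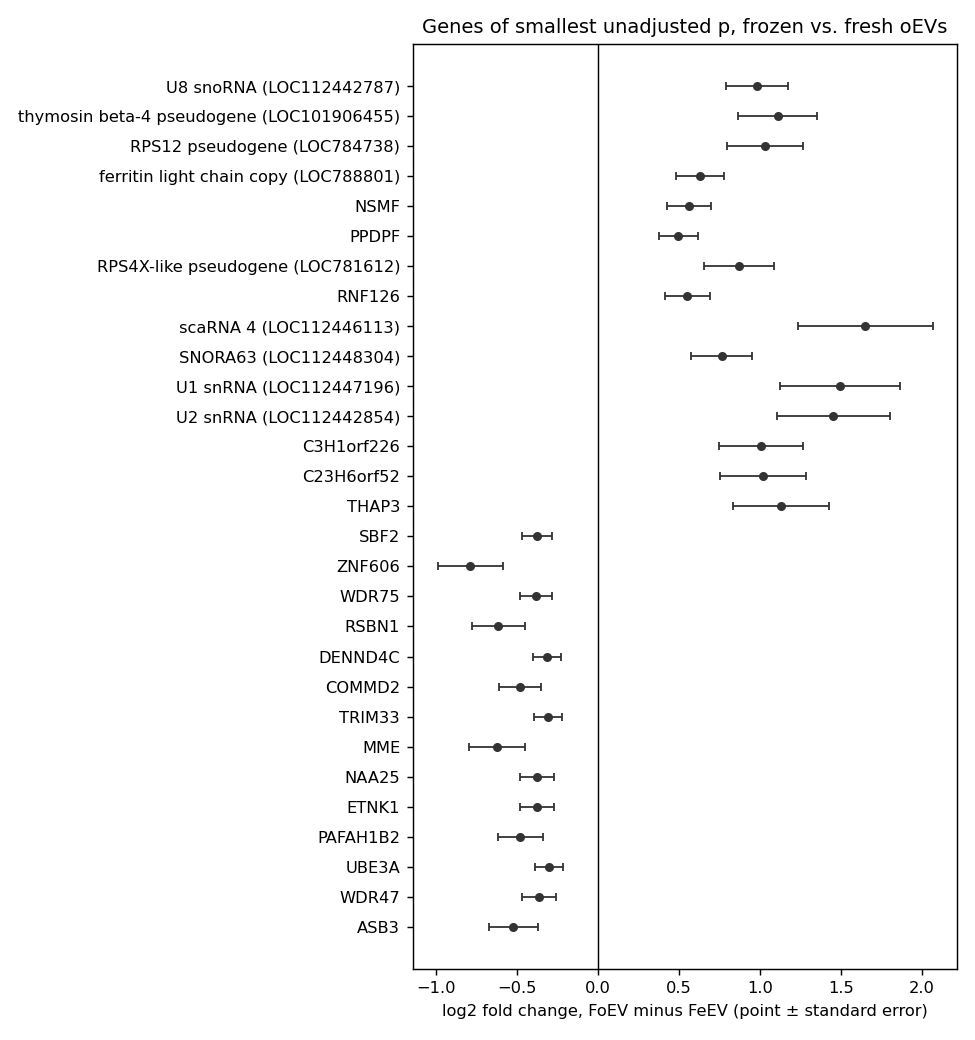
Log2 fold change of FoEV minus FeEV (horizontal axis, points) with its standard error (bars) for the 15 genes of smallest unadjusted p on the higher side and the 14 on the lower side, each in ascending order of p from the top. The higher genes range from 0.49 for PPDPF to 1.65 for small Cajal body-specific RNA 4, and the lower genes from -0.79 for ZNF606 to -0.30 for UBE3A.

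**Figure D4:**
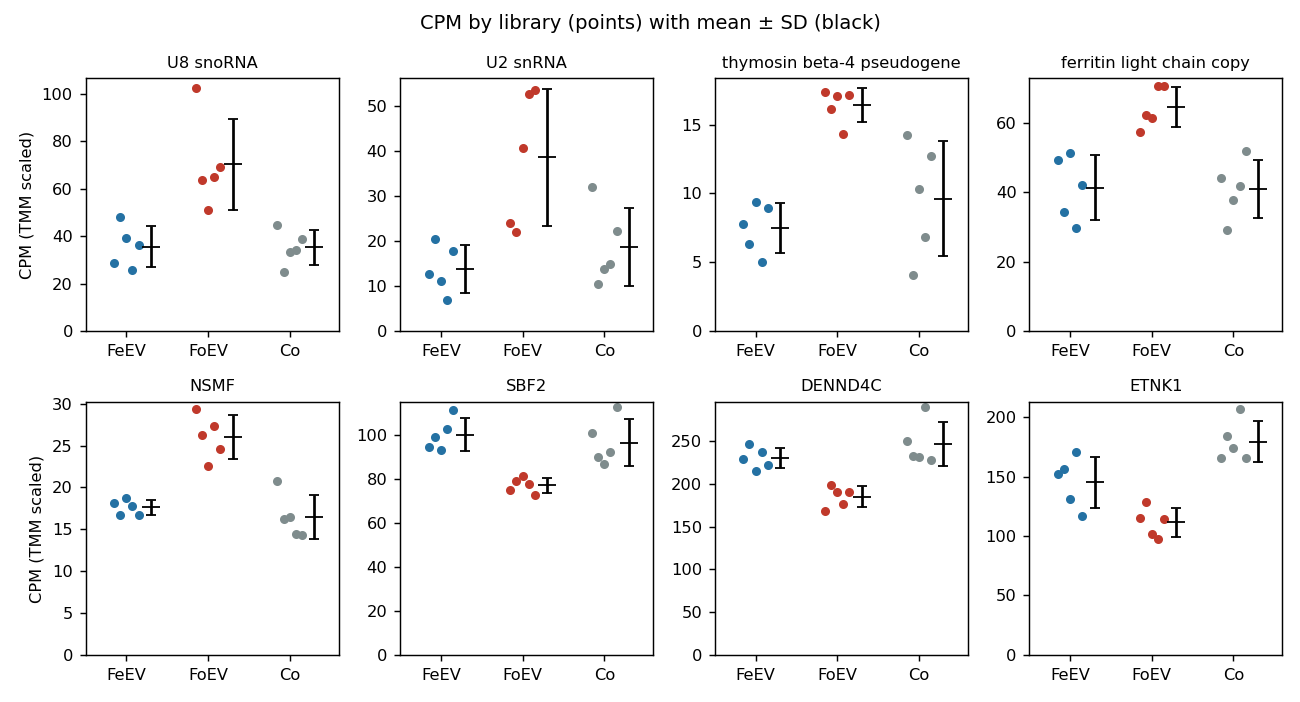
CPM of 8 genes (vertical axes from 0) in each FeEV, FoEV and Co library, with points for libraries and black marks for the mean and SD of 5 libraries. For 7 of the genes all FoEV libraries lie on one side of all FeEV libraries, and for ETNK1 1 FeEV library at 117 CPM falls among the FoEV libraries.

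Genes for ribosomal proteins had slightly higher means in FoEV. Of 84 cytosolic ribosomal protein genes 80 had the higher mean, with a median of 0.15. A p under 0.05 was reached by 25 (29.8% of the list against 8.52% of all genes), all on the higher side (15 without FeEV replicate 2 and 15 without FoEV replicate 3). Without FoEV replicate 3 the median was 0.078 and 72 of the 84 had the higher mean. RPL39, a small protein of the exit tunnel of the large subunit, was at 674, 567, 551, 551 and 569 CPM in FoEV replicates 1 to 5, and at 402, 446, 475, 477 and 460.3 CPM in FeEV replicates 1 to 5. The ranges did not overlap, with a log2 fold change of 0.37 ± 0.10 (SE; adjusted p = 0.448). RPLP2, an acidic protein of the ribosomal stalk, had a log2 fold change of 0.40 ± 0.12, and RPS21 of the small subunit had a log2 fold change of 0.39 ± 0.12, both with overlapping ranges. The mean log2 CPM over the list was 8.498 ± 0.15 in FoEV, 8.34 ± 0.10 in FeEV and 8.35 ± 0.15 in Co (SD, n = 5), and the treatments overlapped.

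Among 78 mitochondrial ribosomal protein genes 55 were higher and 23 lower, and the median was 0.10 (0.061 without FoEV replicate 3). A p under 0.05 was reached by 13 higher genes (8 without FoEV replicate 1 and 8 without FoEV replicate 3) and 2 lower genes, or 19.2% of the list. MRPL36 (0.62 ± 0.17) and MRPL52 (0.39 ± 0.12) of the large subunit had separate ranges. Genes that build the ribosome, by contrast, were divided, with 51 of 90 biogenesis and snoRNP protein genes higher and 39 lower, a median of 0.02, and 5 higher and 4 lower at a p under 0.05, or 10% of the list against 8.52% of all genes. WDR75, described above, was on the lower side and the RNA helicase gene DDX49 on the higher (0.63 ± 0.18). The 5 on the higher side became 10 without FoEV replicate 2, 2 without FeEV replicate 2 and 3 without FeEV replicate 3, FeEV replicate 5, FoEV replicate 1 or FoEV replicate 4, and the 4 on the lower side ran from 1 to 8 with 1 library left out. Among 58 translation factors the median was 0.02, and the cap-binding protein EIF4E was the only one at a p under 0.05, with lower levels in all FoEV libraries (-0.20 ± 0.086). With 1 library left out, 0 to 4 translation factors on the higher side and 0 to 2 on the lower side reached that p.

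Genes for proteins of the spliceosome had smaller differences than the snRNA genes. The median over 65 genes was 0.02 against 0.72 for the snRNA genes, with 40 higher and 25 lower. A p under 0.05 was reached by 6 higher and 1 lower gene (10.8% of the list against 8.52% of all genes). U2AF1, which recognises the 3' splice site, was at 62.3, 52.5, 61.2, 60.8 and 60.5 CPM in FoEV replicates 1 to 5, and at 43.5, 52.4, 48.2, 42.4 and 47.5 CPM in FeEV replicates 1 to 5. The lowest FoEV value was just above the highest FeEV value, with a log2 fold change of 0.34 ± 0.10 (SE; adjusted p = 0.45). The Sm ring proteins SNRPD3 (0.30 ± 0.10) and SNRPD2 (0.48 ± 0.17) overlapped between the treatments.

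Zinc finger and membrane trafficking genes had negative medians. Of 234 genes for KRAB and other zinc finger proteins, most of which repress transcription, 148 had the lower mean in FoEV and 86 the higher, with a median of -0.06 (-0.034 without FoEV replicate 1). A p under 0.05 was reached by 10 on the lower side (5 without FoEV replicate 1) and 6 on the higher side, or 6.84% of the list, which is below the 8.52% of all genes. ZNF606, described above, is not in this list, which took only genes annotated as protein-coding. ZNF805 (-0.37 ± 0.12) had separate ranges on the lower side and ZNF703 on the higher side (0.66 ± 0.23). Of 163 membrane trafficking genes 96 were lower and 67 higher, with a median of -0.04 (-0.019 without FoEV replicate 4, -0.026 without FeEV replicate 5 and -0.059 without FoEV replicate 5). A p under 0.05 was reached by 17 lower (9 without FoEV replicate 4) and 8 higher genes, or 15.3% of the list. When all genes were split by level into 3 equal parts, the highest part also had a median of -0.04. In that part 40.5% of genes were higher in FoEV, against 41.1% of the trafficking list, and 10.4% reached a p under 0.05. The part of level in the list medians was not tested. RAB18, a small GTPase of lipid droplets and the endoplasmic reticulum, was at 62.1, 58.0, 54.3, 45.4 and 56.4 CPM in FoEV replicates 1 to 5, and at 69.4, 71.7, 68.5, 82.0 and 66.8 CPM in FeEV replicates 1 to 5. It was lower in all FoEV libraries, with a log2 fold change of -0.37 ± 0.11 (SE; adjusted p = 0.45). The endosomal sorting (ESCRT) and tetraspanin genes with which cells make vesicles of their own included 31 higher and 15 lower genes out of 46, of which the ESCRT-I subunit VPS37C (0.30 ± 0.14) and the tetraspanin CD81 (0.24 ± 0.12) reached a p under 0.05. These 2 are 4.35% of the list, below the 8.52% of all genes, and 0 were left without FeEV replicate 2 or FoEV replicate 3 and 1 without FeEV replicate 4, FeEV replicate 5 or FoEV replicate 4.

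Most genes of oxidative phosphorylation and glycolysis had the higher mean in FoEV. Of 81 oxidative phosphorylation genes 65 were higher, with a median of 0.14. A p under 0.05 was reached by 7 higher and 1 lower, or 9.88% of the list, near the 8.52% of all genes. Without FoEV replicate 3 the median was 0.053 and 54 were higher. The 7 at a p under 0.05 became 20 without FoEV replicate 2, 4 without FoEV replicate 1, 3 without FeEV replicate 1, and 2 without FeEV replicate 2 or FoEV replicate 3. The complex I core subunit NDUFS1 was the lower one (-0.30 ± 0.10), and the complex IV subunit COX6B1 was among the higher (0.31 ± 0.11). Of 33 glycolysis and pentose phosphate genes 23 were higher, with a median of 0.06 (0.022 without FeEV replicate 1 and 0.15 without FeEV replicate 5). Of these higher genes, 6 reached a p under 0.05 (18.2% of the list). They included PGP (0.48 ± 0.13), ALDOC, an aldolase (0.91 ± 0.25), and the transaldolase TALDO1 (0.29 ± 0.10).

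Among 33 antioxidant and iron storage genes 29 were higher, with a median of 0.15 (0.091 without FeEV replicate 2). A p under 0.05 was reached by 7, or 21.2% of the list against 8.52% of all genes (2 without FeEV replicate 2, 3 without FoEV replicate 1 and 4 without FeEV replicate 4). PRDX4, the peroxiredoxin of the endoplasmic reticulum, was at 39.4, 33.8, 32.0, 28.4 and 25.1 CPM in FoEV replicates 1 to 5, and at 20.9, 22.7, 19.4, 25.5 and 20.4 CPM in FeEV replicates 1 to 5. The groups overlapped narrowly, with a log2 fold change of 0.56 ± 0.16 (SE; adjusted p = 0.45). PRDX2 (0.24 ± 0.084), the ferritin heavy chain FTH1 (0.26 ± 0.11) and GPX4, which reduces lipid peroxides (0.37 ± 0.15), were among the others. On the linear scale PRDX4 was 1.47-fold and FTH1, the most abundant of these genes, 1.198-fold the FeEV level.

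The lists for stress, cell death and protein turnover had medians from -0.04 for chaperones to 0.06 for the proteasome (0.011 without FoEV replicate 3). An unadjusted p under 0.05 was reached by 2.33% of heat shock and chaperone genes, against 8.52% of all genes. The share was 7.41% in the unfolded protein and integrated stress response list, 12.1% in apoptosis, 11.4% in autophagy and 11.4% in the proteasome list. The median over 43 heat shock and chaperone genes was -0.04, with 16 higher and 27 lower, and only the small heat shock protein HSPB1 reached a p under 0.05 (0.25 ± 0.09). The unfolded protein and integrated stress response list had 15 higher and 12 lower of 27, and a median of 0.00. A p under 0.05 was reached by 1 higher and 1 lower gene, the lower being CREBRF (-0.37 ± 0.15). With 1 library left out, 1 gene on the higher side reached that p in each fit, and 0 to 4 on the lower side. In the apoptosis list, with 15 higher and 18 lower of 33, 2 higher and 2 lower genes reached a p under 0.05. The higher ones were the pro-apoptotic BAK1 (0.69 ± 0.21) and FADD (0.61 ± 0.20), and the lower ones the anti-apoptotic MCL1 (-0.16 ± 0.074), which was lower in all FoEV libraries, and the pro-apoptotic BCL2L11 (-0.33 ± 0.16). The 2 lower genes became 0 without FeEV replicate 4, FoEV replicate 1 or FoEV replicate 4, 1 without FeEV replicate 1, FeEV replicate 2 or FoEV replicate 3, and 4 without FoEV replicate 2. The autophagy list had 22 higher and 13 lower of 35, and the 4 at a p under 0.05 were all higher (2 without FeEV replicate 2, FeEV replicate 5 or FoEV replicate 4), the autophagosome proteins MAP1LC3A (0.92 ± 0.28) and GABARAPL1 (0.34 ± 0.14), the phosphoinositide-binding WIPI2 (0.29 ± 0.12) and the cargo receptor SQSTM1 (0.25 ± 0.10). Of 44 proteasome genes 25 were higher, with 5 at a p under 0.05 that included the ubiquitin receptor PSMD4 (0.31 ± 0.10). Those 5 became 1 without FeEV replicate 2, FoEV replicate 1 or FoEV replicate 3, 2 without FeEV replicate 4 and 3 without FeEV replicate 1.

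Actin monomer-binding and tubulin genes had 22 higher and 6 lower members of 28, with a median of 0.11 (0.17 without FeEV replicate 5 or FoEV replicate 2). At a p under 0.05 stood 8 higher members, or 28.6% of the list. The mean log2 CPM over the list was 6.82, 6.72, 6.67, 6.65 and 6.68 in FoEV replicates 1 to 5, and 6.59, 6.34, 6.54, 6.47 and 6.63 in FeEV replicates 1 to 5. Each FoEV library was above each FeEV library, while the Co libraries, from 6.43 to 6.71, overlapped with both. TMSB10, a thymosin that binds actin monomers, was at 386, 313, 358, 328 and 316 CPM in FoEV replicates 1 to 5, and at 272, 271, 302, 262 and 277 CPM in FeEV replicates 1 to 5. The FoEV libraries were all higher, with a log2 fold change of 0.30 ± 0.089 (SE; adjusted p = 0.45). Cell cycle genes had 32 lower and 23 higher members of 55, with a median of -0.07 (-0.035 without FoEV replicate 4). They were 41.8% higher, against 40.5% in the highest part of all genes by level, which had a median of -0.04. The part of level in this was not tested. At a p under 0.05 stood 5 cell cycle genes (9.09% of the list, near the 8.52% of all genes). All 5 were lower (3 without FeEV replicate 2, FeEV replicate 3 or FoEV replicate 1). They included the S phase kinase CDK2 (-0.42 ± 0.14), whose ranges were apart, the replication licensing factor CDC6 (-0.43 ± 0.16) and the spindle checkpoint kinase TTK (-0.31 ± 0.12).

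Lineage markers of the blastocyst overlapped between the treatments. A p under 0.05 was reached by 5.26% of trophectoderm, 7.69% of inner cell mass and 6.25% of hypoblast markers, against 8.52% of all genes. Of 19 trophectoderm markers 17 were higher in FoEV, with a median of 0.13, and KRT18 alone reached a p under 0.05 (0.29 ± 0.13). With 1 library left out the median ran from 0.074 (without FeEV replicate 2) to 0.27 (without FeEV replicate 3), and 0 to 2 of the markers reached that p. Summed over the list they ran from 10479 to 17376 CPM in FoEV and from 9271 to 14579 CPM in FeEV. Of 13 inner cell mass markers 7 were higher, with SOX15 at a p under 0.05 (0.41 ± 0.19), which 0 to 2 genes reached with 1 library left out, and of 16 hypoblast markers 10 were higher, with APOE at a p under 0.05 (0.72 ± 0.21).

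Markers of maternal cells were also compared, since vesicles are prepared from oviducts and oocytes are collected with cumulus cells. Of 24 annotated oviduct epithelium markers, 7 passed the filter on counts, all with a higher mean in FoEV and a median of 0.27. CLU, a secreted chaperone that many epithelia express, was the 1 at a p under 0.05 (0.90 ± 0.32). This is 14.3% of the 7, against 8.52% of all genes. Summed over the 24, the markers ran from 158 to 351 CPM in FoEV, 125.2 to 216 CPM in FeEV and 139 to 357 CPM in Co. Co embryos, which had no vesicles, thus covered the whole FoEV range. Of 19 cumulus and granulosa markers 8 passed the filter and 7 of these were higher. COL1A1 alone was at a p under 0.05 (0.98 ± 0.38), or 12.5% of the 8 against 8.52% of all genes. With 1 library left out, 0 to 2 genes reached that p. Summed over the 19, the markers ran from 271 to 612 CPM in FoEV, 258 to 434 CPM in FeEV and 306 to 528 CPM in Co. Of 17 blood and immune markers 1 passed the filter, and 4 were at 0 in all libraries. The part of such cells in the differences above was not tested.

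**Figure D5:**
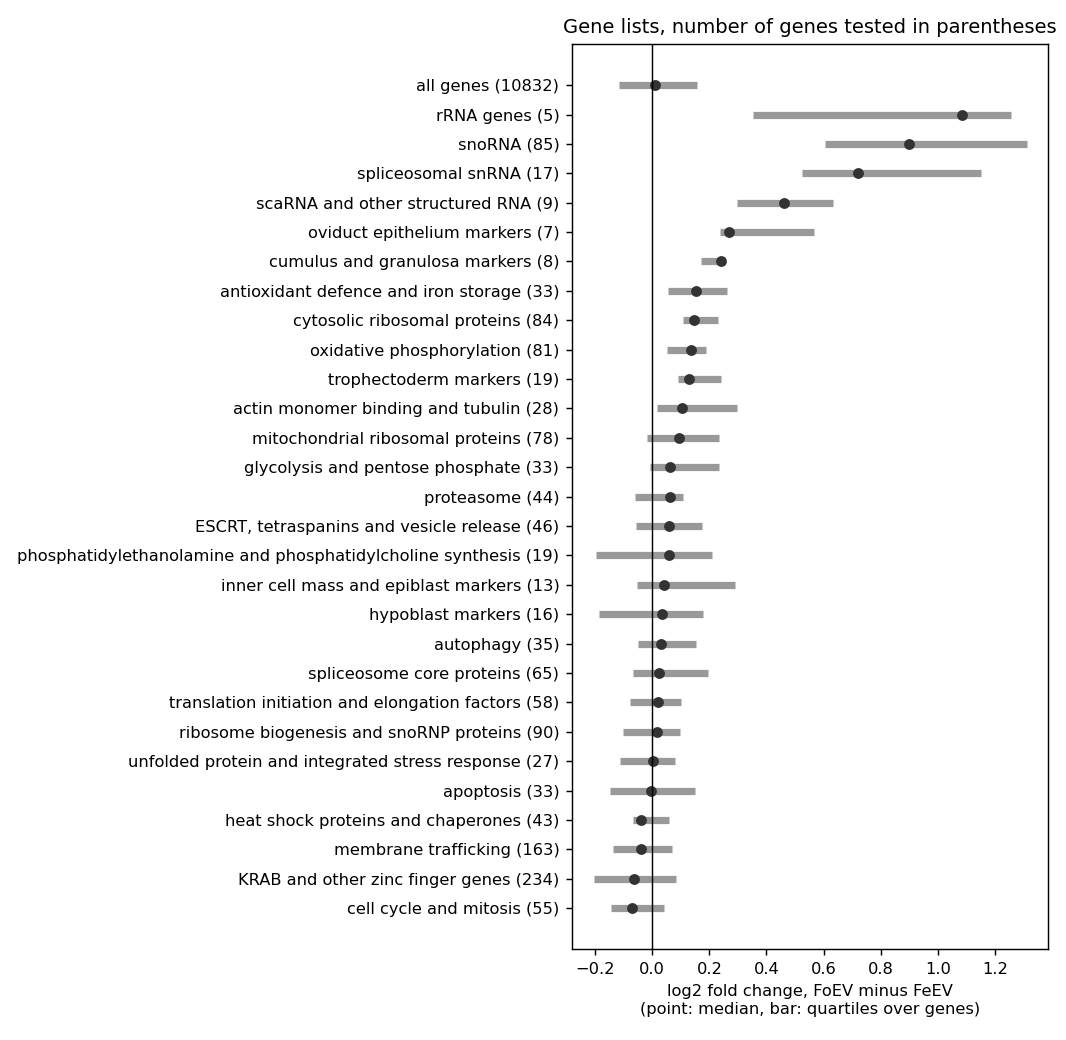
Median log2 fold change of FoEV minus FeEV (points) with the quartiles over genes (bars) for all genes and for each list with at least 5 genes tested, with the number of genes in parentheses. The small RNA lists have medians from 0.46 to 1.09, and the protein-coding lists other than the maternal marker lists lie between -0.07 and 0.15.

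Each treatment was set beside the control embryos to place the difference between them, with the reservation that these comparisons share libraries with FoEV against FeEV. The median of the snoRNA list was 0.85 in FoEV against Co and -0.05 in FeEV against Co, that of the snRNA list 0.60 and -0.13, and that of the cytosolic ribosomal proteins 0.15 and -0.03. For the U8 gene LOC112442787 the log2 fold changes were 1.00 and 0.02, for NSMF 0.66 and 0.10, for SBF2 -0.32 and 0.05 and for DENND4C -0.41 and -0.10, in FoEV and FeEV against Co respectively. For the oviduct markers both medians were negative, -0.16 and -0.50. Some other genes at p under 0.001 had FeEV values on the other side of Co. Small Cajal body-specific RNA 4 (0.62 and -1.02) and the thymosin beta-4 pseudogene (0.78 and -0.33) were lower in FeEV than in Co. So were the U2 gene LOC112442854 (1.05 and -0.41), the U1 gene LOC112447196 (1.23 and -0.27) and C3H1orf226 (0.75 and -0.25). The same held for C23H6orf52 (0.48 and -0.54) and THAP3 (0.62 and -0.51), whereas ZNF606 was higher in FeEV (-0.37 and 0.42). No gene passed an edgeR adjusted p of 0.05 in FeEV against Co.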

How the data were processed

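Bovine blastocyst pools cultured with frozen (FoEV) or fresh (FeEV) oviductal vesicles were compared, with the control (Co) libraries in the same fit. The authors deposited whole-number counts of reads per gene without normalization, for 34773 genes and, after a filter on low counts, for 10832, on the assembly ARS-UCD1.2. The submitters' processing notes name Trim Galore 0.4.3.1, HISAT2 2.1.0 and featureCounts 1.6.3, whereas the methods name QuasR for counting. Libraries were strand selected, and the handling of reads with several matches is not given in the sources used here. Mapping was not repeated. Groups and replicate numbers came from the titles.

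The filtered counts were scaled by TMM, and edgeR 4.0.16 gave the quasi-likelihood F test (R 4.3.3, robust fit, treatment as the only factor, 15 libraries) with Benjamini-Hochberg adjustment over 10832 genes. Alternatives were a likelihood ratio test with robust dispersion, DESeq2 1.42.0, other scalings, filters, blocks, thinning, and leaving out each library. Mean log2 CPM over a list used a prior count of 2. Totals were compared with two-sided exact permutation tests, and tests were tested on simulated data. Figures were drawn with matplotlib 3.10.9 from tables made in Python 3.11.15 with pandas 2.3.3. Library totals ran from 2136713 to 4058887 counts, and 3 counts were taken as the floor, or 0.000140% of the smallest library.

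Gene names and types came from a later bovine RefSeq annotation (10709 genes matched by identifier) or the study's annotation, and lists were drawn up from symbols and types. The snoRNA classes and the scaRNA and structured RNA genes were each kept as 1 list, and lists of ribosomal protein copies and mitochondrial genome mRNAs were not formed. The genes named are those at an unadjusted p under 0.001, filled up to 14 per direction by p, and the 4 members of smallest p in each list. Of these, 1 gene is not reported here. The members and lists were chosen with earlier results of these data known. Removal of ribosomal and small RNA genes, and the recount of list members in every fit, were added after seeing the data. Corrections for transcript length were not run, and no sequences or coordinates are given, since lengths and sequences of this assembly were not at hand. The authors' own fold changes and p-values were not used.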

Additional observations from a re-analysis of the deposited data

Results flagged for a closer look

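In groups of 5 libraries, a value was marked when its gap to the nearest other library exceeded Dixon's 95% critical share of the range. Of 332 group values tested, 19 were marked, and chance alone marks about 5% of such groups. No explanation was tested for any of them.

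In FoEV replicate 4, small Cajal body-specific RNA 4 (LOC112446113) was at 14.36 CPM, C3H1orf226 at 16.03 CPM, the ethanolamine phosphate lyase gene ETNPPL at 5.676 CPM and the epiblast marker UTF1 at 53.75 CPM, each the highest of its group. FoEV replicate 1 was highest for the ribosomal protein gene RPL39 at 674 CPM and the tight junction gene CLDN4 at 418.2 CPM. FoEV replicate 2 was highest for TRIM33 at 213.2 CPM and lowest for U2AF1 at 52.47 CPM and PRDX2 at 257.6 CPM.

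In FeEV replicate 2, small Cajal body-specific RNA 4 was at 5.57 CPM, TERC at 63.13 CPM and the pluripotency factor SOX2 at 39.73 CPM, all the highest of the group. FeEV replicate 5 was highest for the RPS12 pseudogene (LOC784738) at 17.6 CPM and for MRPL36 at 14.8 CPM. FeEV replicate 4 was lowest for COMMD2 at 24.59 CPM and highest for WIPI2, an autophagosome protein, at 64.22 CPM and for STAR, a steroidogenic gene, at 8.653 CPM. NDUFB11 was highest in FeEV replicate 3 at 48.17 CPM, and the mean log2 CPM of the mitochondrial ribosomal protein list was lowest in FeEV replicate 1 at 4.677.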

How the results depend on the processing

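The count of 0 genes at an adjusted p under 0.05 became 31 with the likelihood ratio test, 3 with DESeq2 (RMRP and the U8 and U2 genes LOC112442787 and LOC112442854), 22 with no filter on low counts and 1 with a block on the library number of the sample descriptions, and it ran from 0 to 1 over fits that each left out 1 library. At an unadjusted p under 0.001, the 15 higher and 3 lower genes became 75 and 20 with the likelihood ratio test, 30 and 14 with DESeq2, 95 and 17 with no filter, and 14 and 1 with a minimum mean of 20 CPM; leaving out 1 library gave 2 to 27 higher and 1 to 13 lower genes. Of the genes at this threshold, 83.3% were higher in the reported fit, 68.2% with DESeq2 and 93.3% with the minimum mean. The median of the snRNA list, 0.72 over 17 genes, was 1.15 over the 7 genes that passed that minimum and 0.39 over 330 genes with no filter, and that of the snoRNA list, 0.90 over 85 genes, was 0.59 over 426 with no filter. The median of the trophectoderm markers was 0.20 and that of the oviduct markers 0.43 with the likelihood ratio test. Leaving out 1 library moved the median of the phosphatidylethanolamine and phosphatidylcholine list from 0.06 to between 0.012 and 0.12. Other printed medians that moved by more than 1.5 times without 1 library have that value beside them, except those near 0, which ran from -0.0061 to 0.050 for ribosome biogenesis, 0.0092 to 0.036 for translation factors, 0.021 to 0.061 for spliceosome proteins, -0.047 to 0.0046 for chaperones and -0.033 to 0.028 for the unfolded protein response. None of the 29 genes of smallest p reversed direction in the fits in which it was tested, which were 21 to 23 of the 23 alternatives. The cause of these shifts was not tested.

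The labels do not say whether the title numbers pair the libraries, and the values do not decide it. Deviations from the group means of same-numbered FoEV and FeEV libraries correlated by 0.01 to 0.44. Their mean was 0.19, against -0.05 for the other pairs. Of 5 pairs 3 were above 0.1, and 2 of 5 FoEV and 2 of 5 FeEV libraries correlated best with their own number. By library number, 4 pairs correlated by -0.20 to 0.44, with a mean of 0.07 against -0.01 for the other pairs. With the title number as a replicate block, 25 higher and 7 lower genes reached p under 0.001, and 0 an adjusted p under 0.05. In that fit an unadjusted p under 0.05 was reached by 1203 genes, against 923 without the block, and the smallest edgeR adjusted p was 0.118. For library totals the replicate block gave a difference of 760585 counts at an exact sign-flip p of 0.0625, the smallest that 5 pairs allow. Without 1 library the difference in totals ranged from 547176 to 965149 counts, with exact permutation p up to 0.0635, and that in genes with a count from 648.8 to 1174 (exact permutation p = 0.0238 without FoEV replicate 4). Depth limits genes of few counts, such as small Cajal body-specific RNA 4.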

Other observations

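Differences between FoEV and FeEV embryos also varied with the level and type of a gene. When genes were split by level into 3 equal parts, 61.2% of the lowest part had the higher mean in FoEV, with a median log2 fold change of 0.07, against 53.7% of the middle part, with 0.02, and 40.5% of the highest part, with -0.04. At an unadjusted p under 0.05, the highest part held 140 higher and 236 lower genes, and the lowest part 182 higher and 58 lower genes. The library totals also differed between the treatments, and the part of depth in this was not tested.

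Pseudogenes, which often copy abundant genes, had a median of 0.15 over 92 genes. An unadjusted p under 0.05 was reached by 13 higher and 5 lower ones, or 19.6% of them against 8.52% of all genes. Long non-coding RNA genes, of which 94 were tested, had a median of -0.01, with 5 higher and 1 lower at that p (6.38%). The 10382 protein-coding genes had a median of 0.01, with 452 higher and 377 lower at that p (7.98%).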
